A study of Mus musculus with 8 samples.

Results

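The 10 genes described here act in the release and storage of fat inside cells. They are G0s2 and Hilpda, which encode inhibitors of adipose triglyceride lipase, the lipases Pnpla2, Lipe and Mgll, the lipase coactivator Abhd5, the droplet coat genes Plin2, Plin3 and Plin4, and the fatty acid carrier Fabp4. They were taken by symbol, all 10 were found among 55414 gene identifiers, and all 10 passed the filter on low counts. G0s2 was chosen by its measured difference between the groups, one of the largest rises in these data, and the others for their place beside it in the pathway. Differences of the 10 genes between the groups are therefore given as a description, with a standard error and no p-value.

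RNA came from pancreatic islets of C57BL/6 mice at 5 weeks of age, in 2 groups of 4 libraries. The TG group had the genotype Ins2 cre(+/-) ATF4 TG(+/-) and the WT group Ins2 cre(-/-) ATF4 TG(+/-), so the animals called WT also carried the ATF4 transgene and lacked only the Cre driver. Ins2 is an insulin gene, and the series describes the transgene as specific to beta cells. No group carried Cre without the transgene, so the part of Cre itself and that of ATF4 cannot be told apart. Whether each library stands for its own animal is not said in the labels, so every error and p-value reflects variation among these libraries alone, which may be technical.

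Triglyceride is kept in droplets whose surface is covered by perilipins. Adipose triglyceride lipase, the product of Pnpla2, removes the first fatty acid after it is activated by ABHD5, hormone-sensitive lipase (Lipe) removes the next, and monoacylglycerol lipase (Mgll) the last. G0S2 and HILPDA are small proteins that bind adipose triglyceride lipase and block it, and in beta cells lipolysis is known to supply lipid signals that take part in insulin secretion.

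The windows just upstream of G0s2, of the lipase that its product blocks and of the coat gene Plin2 are shown because the comparison of inhibitor, lipase and coat runs through these 3 genes. The sequences are from RefSeq on GRCm38.p6, an earlier build than the one named for the counts, and run 5′ to 3′ on the gene's strand from 250 to 31 bases before the annotated start. The window of G0s2 is chr1:193273219-193273438 on the minus strand, that of Pnpla2 chr7:141454938-141455157 on the plus strand, and that of Plin2 chr4:86670090-86670309 on the minus strand. Capitals mark GCGTG on either strand, a core letter run of hypoxia response elements.
G0s2: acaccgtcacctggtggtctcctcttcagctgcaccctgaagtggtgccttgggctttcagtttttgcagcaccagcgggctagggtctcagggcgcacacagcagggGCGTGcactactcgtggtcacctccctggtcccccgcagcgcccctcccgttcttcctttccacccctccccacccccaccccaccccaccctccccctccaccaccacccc
Pnpla2: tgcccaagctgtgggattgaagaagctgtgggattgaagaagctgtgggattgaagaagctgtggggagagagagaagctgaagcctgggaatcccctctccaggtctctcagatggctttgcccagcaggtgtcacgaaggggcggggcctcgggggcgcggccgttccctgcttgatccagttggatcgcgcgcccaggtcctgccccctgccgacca
Plin2: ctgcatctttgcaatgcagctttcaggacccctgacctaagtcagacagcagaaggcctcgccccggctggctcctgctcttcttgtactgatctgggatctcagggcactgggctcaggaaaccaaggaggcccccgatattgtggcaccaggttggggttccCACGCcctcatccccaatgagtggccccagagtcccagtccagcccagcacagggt
G0s2 has this run once, at position −142 from the start, Plin2 once, at −86, and the Pnpla2 window has none.

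Letter runs were searched on both strands of windows of 300 bases (250 before to 50 after each start), of which 12 belong to 9 of the 10 genes. The run GCGTG was present in 8 of these 12 windows, against 32.4% of all 32851 windows, and ACGTG in 5 of 12, against 19.6%. By gene, GCGTG was found for 6 of the 9 genes and ACGTG for 4, and the windows of Hilpda overlap each other. In the 250 bases before the start the 12 windows had 48.4% to 74.8% GC. The median of all windows was 52.4%, and the shares were not adjusted for this. The E-box CACGTG, which contains ACGTG and is bound among others by carbohydrate-responsive factors, was present in 3 of the 12 windows, against 7.15% of all windows, also not adjusted for GC. These windows belong to 3 genes, Lipe, Mgll and Plin2. TGATGNAA, the core of the composite site of ATF4 and C/EBP proteins, was in 0 of the 12 windows and in 3.97% of all windows, and the PPAR-RXR direct repeat, searched with a spacer of any base, in 0 of 12 and in 0.0396% of all. These are matches of letters in short windows, which show no binding.

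Libraries held between 16521087 and 22499999 gene counts, and levels are given as CPM, counts scaled to the effective library size. Atf4, at 234 to 278 CPM in TG and 326 to 378 CPM in WT, does not check the transgene, whose transcripts may not be counted under that gene. Markers of beta cells were lower in TG (10 of 10 did not overlap, summed level 50093 to 64198 CPM against 103120 to 123756 CPM), while markers of several other cell types were higher. The 12 endothelial markers summed to 1505 to 1555 CPM in TG and 610 to 1093 CPM in WT, with 10 of 12 not overlapping. For the 12 stellate, fibroblast and mural markers the ranges were 959 to 1404 CPM and 370.0 to 718 CPM, again with 10 of 12 not overlapping, and for the 12 macrophage markers 191 to 492 CPM and 108 to 176 CPM, with 7 of 12. The 7 ductal markers summed to 758 to 1037 CPM in TG and 374 to 428 CPM in WT, with 4 of 7 not overlapping. Among WT libraries, replicate 3 had the highest endothelial, stromal, macrophage, ductal and acinar sums, the ductal and acinar ones nearly equalled by another WT library. TG replicates 2 and 3 had the highest macrophage sums of all libraries. The highest acinar sum was that of TG replicate 1, at 41153 CPM against 1302 to 12743 CPM elsewhere. In these bulk samples fewer cells of a type and less RNA per cell cannot be told apart.

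G0s2 was 37.0-fold higher in the TG libraries than in the WT libraries, while the lipase that its product inhibits was at nearly the same level in both groups. G0s2 (ENSMUSG00000009633) stood at 365, 328, 392 and 251 CPM in TG replicates 1 to 4 and at 8.94, 6.08, 12.04 and 9.10 CPM in WT replicates 1 to 4. The groups were far apart, and even the lowest TG library, replicate 4, stood well above the highest WT library, replicate 3. Means were 334 ± 61.0 CPM and 9.04 ± 2.43 CPM (SD, n = 4 each), and the fitted log2 change was 5.21 (SE 0.23). Over 20509 tested genes, 17 (0.0829%) had a fitted log2 change at least this large, G0s2 included, which restates the value that chose the gene.

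**Figure D1:**
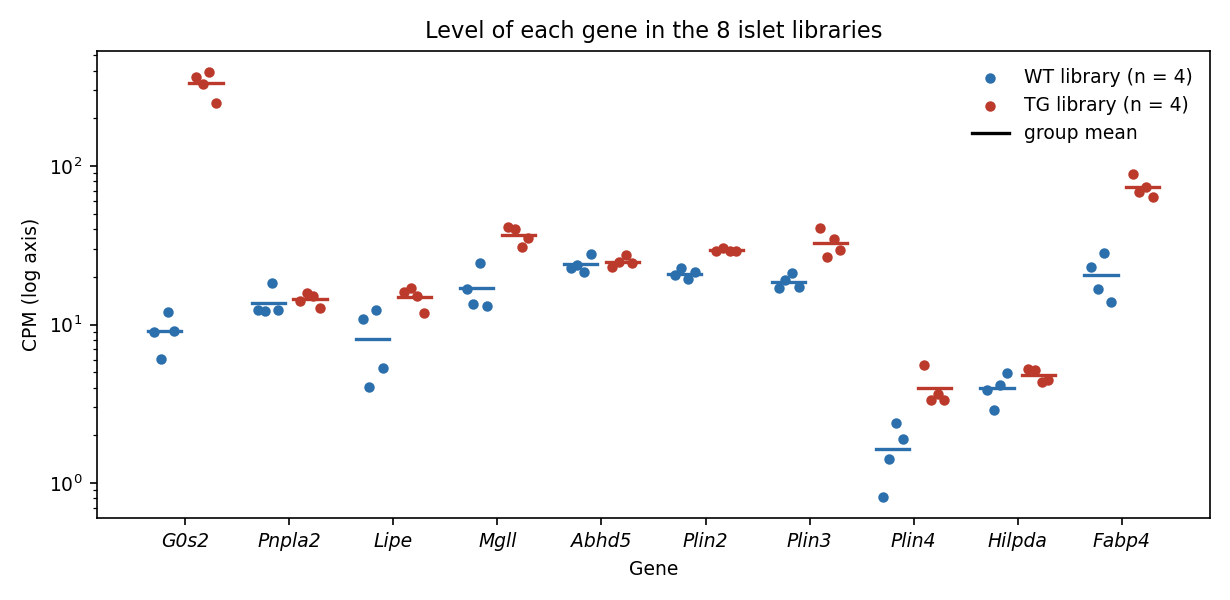
Level of each of the 10 genes in the 8 islet libraries, in CPM on a log axis; points are libraries (blue WT, red TG, 4 each) and bars are group means. G0s2 lies at 251 to 392 CPM in TG and 6.08 to 12.04 CPM in WT, whereas the points of Pnpla2, Abhd5 and Hilpda overlap between the groups.

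Hilpda, the other inhibitor of this lipase and a gene known to respond to hypoxia, was low in CPM in both groups and has 1.10 kb of exon. It stood at 5.24, 5.20, 4.33 and 4.44 CPM in TG replicates 1 to 4 and 3.86, 2.90, 4.17 and 4.95 CPM in WT replicates 1 to 4. These ranges overlap, and the fitted log2 change was 0.28 (SE 0.23). Per kb of exon the level of G0s2 was 88.7 ± 18.7 times that of Hilpda in TG and 2.89 ± 0.566 times in WT (SD, n = 4 each). On this scale Hilpda was not far below Pnpla2, at 4.35 ± 0.439 against 4.79 ± 0.438 CPM per kb in TG. In WT the values were 3.60 ± 0.767 and 4.56 ± 1.01 CPM per kb. Both inhibitors were thus detected in WT islets, and only for G0s2 did the TG and WT libraries separate.

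Pnpla2, which encodes adipose triglyceride lipase, stood at 14.1, 15.8, 15.2 and 12.8 CPM in TG replicates 1 to 4 and at 12.3, 12.2, 18.3 and 12.3 CPM in WT replicates 1 to 4. WT replicate 3 was the highest of all 8 libraries, and the other 3 WT libraries lay just below the TG libraries. The fitted log2 change was 0.07 (SE 0.16), and 0.24 (SE 0.14) without WT replicate 3. Abhd5, the coactivator of this lipase, stood at 23.2, 25.0, 27.4 and 24.3 CPM in TG and 22.8, 23.7, 21.4 and 27.98 CPM in WT. The groups overlapped across nearly their whole range, with a fitted log2 change of 0.06 (SE 0.12).

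Set against the lipase in the same library, the inhibitor moved and the coactivator did not separate. G0s2 had 25.8, 20.8, 25.8 and 19.7 counts per Pnpla2 count in TG replicates 1 to 4 and 0.728, 0.5, 0.657 and 0.741 in WT replicates 1 to 4. The mean ratio was 23.0 ± 3.24 in TG and 0.657 ± 0.111 in WT (SD, n = 4 each), 35.1-fold apart. On the scale of CPM per kb of exon it was 79.9 ± 11.2 and 2.28 ± 0.384, so G0s2 was above Pnpla2 in every library of both groups on this scale. Abhd5 over Pnpla2 on the same scale was 0.879 ± 0.0744 in TG and 0.919 ± 0.236 in WT, with overlapping ranges.

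**Figure D2:**
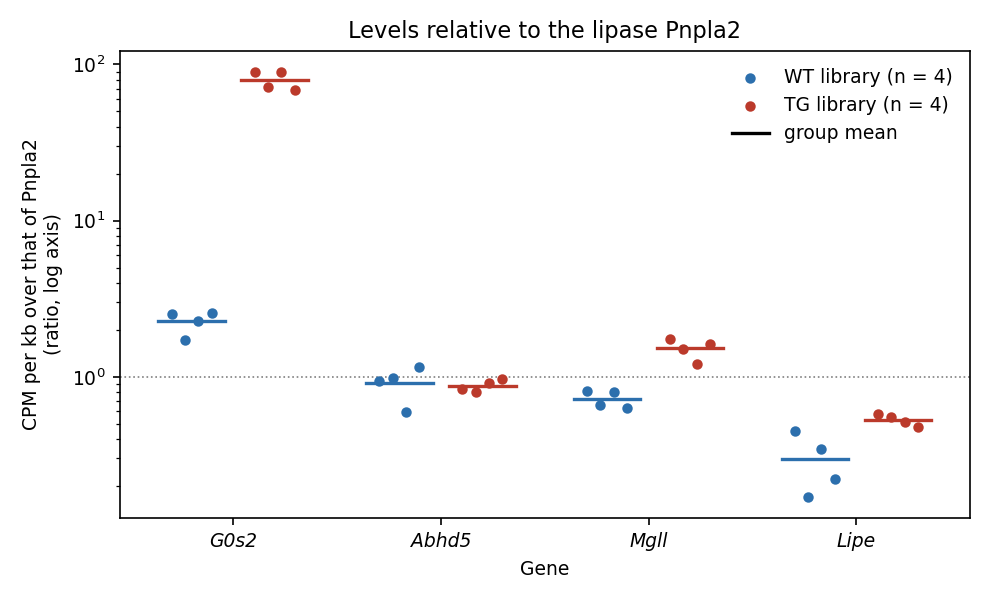
CPM per kb of exon of G0s2, Abhd5, Mgll and Lipe divided by that of Pnpla2 in the same library, on a log axis; points are libraries, bars group means and the dotted line a ratio of 1. G0s2 lies at 68.3 to 89.5 in TG and 1.73 to 2.57 in WT, and Abhd5 overlaps between the groups near 1.

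The 2 lipases that act after Pnpla2 had higher means in TG. Mgll, which also breaks down the endocannabinoid 2-arachidonoylglycerol, stood at 41.4, 39.8, 30.9 and 34.9 CPM in TG and at 16.8, 13.4, 24.6 and 13.1 CPM in WT, without overlap. Its means were 36.8 ± 4.78 CPM and 17.0 ± 5.34 CPM (SD, n = 4 each; fitted log2 change 1.11, SE 0.18). Lipe stood at 16.03, 17.1, 15.1 and 11.8 CPM in TG and at 10.8, 4.05, 12.4 and 5.32 CPM in WT. The WT libraries of Lipe fell into a lower and a higher pair, and the highest one, replicate 3, exceeded the lowest TG library (fitted log2 change 0.88, SE 0.32). Relative to Pnpla2 per kb, Mgll was 1.52 ± 0.229 in TG and 0.725 ± 0.0928 in WT, and Lipe 0.531 ± 0.0470 and 0.298 ± 0.126, and neither ratio overlapped between the groups.

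The 3 coat genes were higher in TG in every library, by amounts far below that of G0s2. Plin2, the main perilipin of non-adipose cells, stood at 29.05, 30.5, 29.05 and 29.1 CPM in TG and 20.5, 22.6, 19.3 and 21.4 CPM in WT. It had the smallest spread of the 10 genes in both groups, with a coefficient of variation of 2.42% in TG and 6.51% in WT, and a fitted log2 change of 0.49 (SE 0.10). Plin3, a perilipin that moves between cytosol and droplets, stood at 40.8, 26.7, 34.4 and 29.5 CPM in TG and 17.0, 19.0, 21.0 and 17.3 CPM in WT (fitted log2 change 0.82, SE 0.14). Plin4, a coat protein best known from adipocytes, stood at 5.56, 3.33, 3.66 and 3.36 CPM in TG and 0.821, 1.43, 2.41 and 1.89 CPM in WT (fitted log2 change 1.28, SE 0.33). The sum of the 3 coat genes was 66.2 ± 6.75 CPM in TG and 41.2 ± 2.18 CPM in WT (SD, n = 4 each), 1.61-fold higher in TG.

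Fabp4, a fatty acid carrier of adipocytes, macrophages and capillary endothelium, had the second largest difference. It stood at 89.6, 68.2, 74.1 and 64.1 CPM in TG replicates 1 to 4 and at 23.1, 16.8, 28.2 and 13.8 CPM in WT replicates 1 to 4, with every TG library above every WT library. Means were 74.0 ± 11.2 CPM and 20.5 ± 6.45 CPM (SD, n = 4 each; fitted log2 change 1.85, SE 0.21). Per 100 counts of the 12 endothelial markers Fabp4 had 4.83 ± 0.775 counts in TG and 2.71 ± 0.432 in WT, and per 100 counts of the stellate, fibroblast and mural markers 6.58 ± 0.431 and 4.15 ± 0.640, without overlap in either case. Per 100 macrophage marker counts the values were 25.6 ± 11.3 and 14.4 ± 2.30, which overlapped.

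Mgll kept nearly the same proportion to the endothelial markers in both groups, at 2.40 ± 0.302 counts per 100 in TG and 2.23 ± 0.114 in WT, and Plin4 was at 0.260 ± 0.0713 and 0.219 ± 0.0793. Other marker lists rose by similar amounts. Mgll was 2.17-fold higher in TG, and the summed endothelial markers 2.02-fold, stromal 2.28-fold, macrophage 2.37-fold, ductal 2.17-fold and acinar 2.18-fold (overlapping). The remaining lists reached at most 1.32-fold (alpha cell). The cell source of Mgll was not tested. WT replicate 3, the WT library with the highest endothelial, stromal, macrophage, ductal and acinar sums, was also the highest WT library for 7 of the 10 genes (G0s2, Pnpla2, Lipe, Mgll, Plin3, Plin4 and Fabp4). With the mean level of endothelial and stromal markers as a covariate, under which the SE of the median gene grew 2.10-fold, the fitted log2 change was 4.34 (SE 0.36) for G0s2, 0.72 (SE 0.24) for Plin2 and 0.72 (SE 0.27) for Fabp4. It was 0.07 (SE 0.27) for Mgll, 0.29 (SE 0.72) for Plin4, 0.36 (SE 0.30) for Plin3, 0.41 (SE 0.26) for Abhd5 and 0.11 (SE 0.53) for Hilpda. Pnpla2 and Lipe lay below 0, at −0.58 (SE 0.30) and −0.59 (SE 0.47). The covariate separated the groups, so its effect and that of the genotype cannot be told apart.

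**Figure D3:**
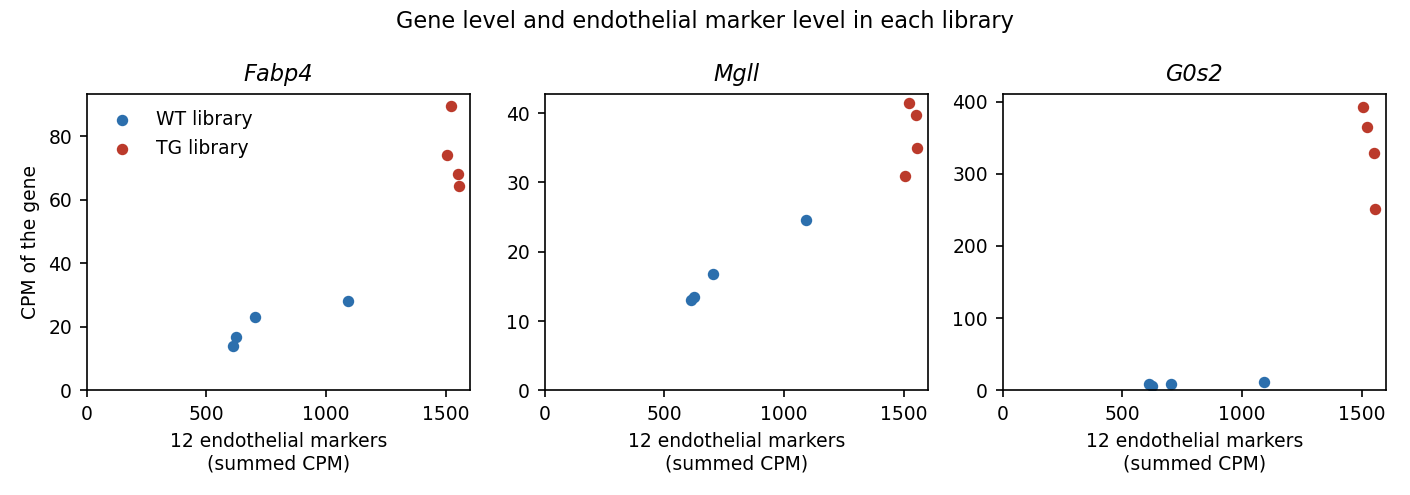
Level of Fabp4, Mgll and G0s2 (CPM) against the summed level of 12 endothelial markers (CPM) in the 8 libraries, blue WT and red TG. TG libraries sit at 1505 to 1555 CPM of markers and WT libraries at 610 to 1093 CPM. G0s2 in WT replicate 3, the WT library with the most markers, is the highest WT value, at 12.04 CPM against 6.08 to 9.10 CPM. The TG libraries lie at 251 to 392 CPM of G0s2.

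Several defining genes of fat cells were at low levels, and the adipocyte list as a whole did not move one way. Of its 8 markers, Adipoq, Retn, Cfd, Lep and Adrb3, set apart after their values were seen, together reached 0.177 to 1.13 CPM in TG and 0.368 to 1.06 CPM in WT, where the upper limit for a count of 0, taken as 3 counts, equals 0.133 to 0.182 CPM in a library. Plin1, the perilipin of adipocytes, did not exceed 0.370 CPM in any library and Cidec, a droplet fusion protein of fat cells, did not exceed 0.368 CPM. The highest single value of these 5 genes was 0.756 CPM, for Retn in TG replicate 1. All 8 adipocyte markers summed to 17.4 to 21.6 CPM in TG and 20.05 to 22.8 CPM in WT, most of it from Lgals12 and Trarg1, which went opposite ways without overlap. Trarg1, which takes part in glucose transporter trafficking, rose from 3.75 ± 1.42 CPM to 8.30 ± 1.48 CPM (SD, n = 4 each; adjusted p = 0.00495, edgeR). Lgals12, a galectin of droplets, fell from 15.2 ± 0.518 CPM to 9.65 ± 1.21 CPM (adjusted p = 0.00400, edgeR). The fitted log2 change of Trarg1 was 1.14, but −0.15 (SE 0.44) with the vascular and stromal covariate and 0.31 (SE 0.46) with the macrophage covariate. For Lgals12 it was −0.66, −0.63 (SE 0.32) and −0.73 (SE 0.32). Neither gene passed with a covariate. Adipocyte content was not tested. Leaving out TG replicates 2 and 3, which had the most macrophage marker counts, gave a fitted log2 change of 5.05 (SE 0.24) for G0s2 and 1.86 (SE 0.26) for Fabp4. With the macrophage markers as a covariate G0s2 was at 4.31 (SE 0.24), Fabp4 at 1.17 (SE 0.33), Plin3 at 0.69 (SE 0.30), Plin2 at 0.61 (SE 0.23) and Mgll at 0.51 (SE 0.32). Under this covariate the SE of the median gene grew 2.07-fold. It also separated the groups, so its effect and that of the genotype cannot be told apart.

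**Figure D4:**
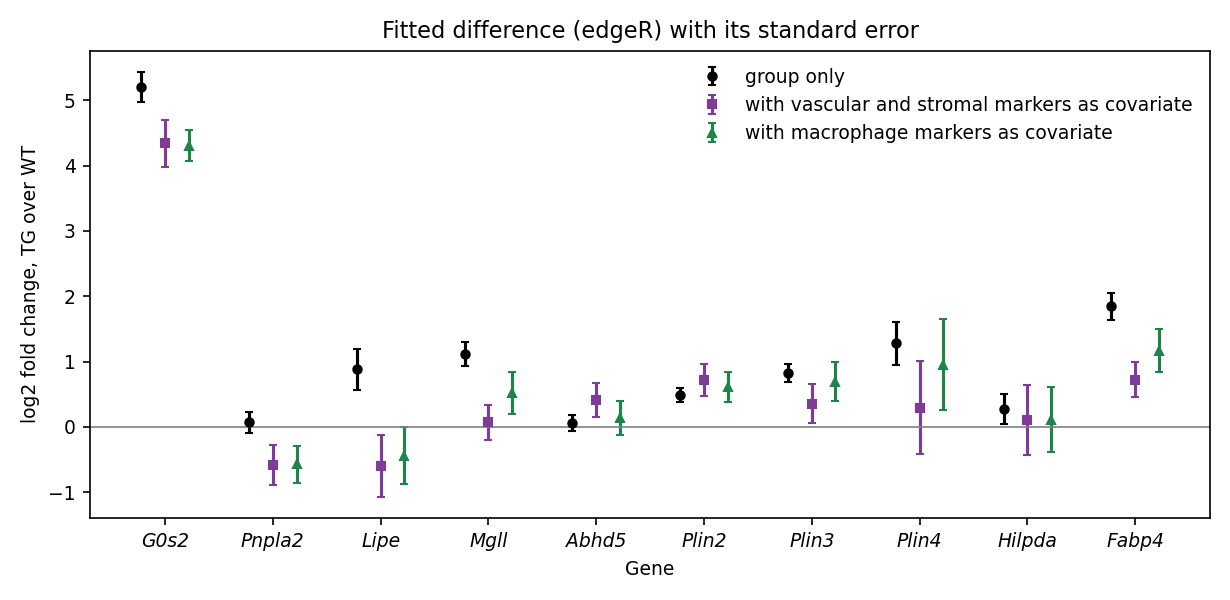
Fitted log2 change of TG over WT for the 10 genes with its standard error, from the edgeR fit with group only (black circles), with vascular and stromal markers as a covariate (purple squares) and with macrophage markers as a covariate (green triangles). G0s2 stays between 4.31 and 5.21, and Pnpla2 and Lipe lie below 0 with either covariate.

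In the fit across all genes, 6 of the 10 (G0s2, Mgll, Plin2, Plin3, Plin4 and Fabp4) passed an adjusted p of 0.05 (edgeR quasi-likelihood test, Benjamini-Hochberg), all higher in TG, beside 20.1% of 20509 tested genes in either direction, 12.1% higher and 8.06% lower. The same 6 did not overlap between the groups, beside 22.6% of tested genes, and 12.6% of tested genes were higher without overlap. The choice of the genes used this contrast, so nothing is read from these counts. The same holds for the calls of the other fits that follow, that of G0s2 included. With the vascular and stromal covariate 1 of the 10, G0s2, passed, beside 1.41% of genes, and with the macrophage covariate the same gene, beside 1.16%. Without TG replicates 2 and 3 the number was 4, beside 10% of genes. DESeq2 (23.7% of genes), limma-voom (21%) and edgeR without a filter on low counts (8.89%) each called 7 of the 10, the same 6 and Lipe.

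Per kb of exon G0s2 was the most abundant of the 10 genes in both groups, but its share of their summed level went from 23.8% ± 3.24 in WT to 86.8% ± 1.68 in TG (SD, n = 4 each). On that scale the order in WT was G0s2 (10.4 ± 2.79 CPM per kb), Plin2 (5.97 ± 0.389), Plin3 (4.90 ± 0.491), Fabp4 (4.56 ± 1.44), Pnpla2 (4.56 ± 1.01), Abhd5 (4.02 ± 0.475), Hilpda (3.60 ± 0.767), Mgll (3.34 ± 1.05), Lipe (1.38 ± 0.692) and Plin4 (0.283 ± 0.117). The ranges of neighbours overlapped all the way from Plin2 to Mgll, and G0s2, Lipe and Plin4 stood clear of the gene next to them. In TG the order began with G0s2 (384 ± 70.1 CPM per kb) and Fabp4 (16.5 ± 2.49), followed by Plin3 (8.67 ± 1.64) and Plin2 (8.38 ± 0.203), whose ranges overlapped, and Mgll (7.24 ± 0.941). Pnpla2 (4.79 ± 0.438), Hilpda (4.35 ± 0.439) and Abhd5 (4.19 ± 0.300) overlapped from one to the next, and Lipe (2.55 ± 0.386) and Plin4 (0.689 ± 0.184) came last. The 9 genes other than G0s2 summed to 236 ± 21.1 CPM in TG and 128 ± 16.5 CPM in WT, 1.84-fold higher in TG.

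The genes whose profile over the 8 libraries was most like that of G0s2 were named by the smallest root mean square difference of log2 CPM, centred on each gene, among 11953 genes. They were Trib3 (difference 0.2502), whose product is a kinase-like protein without clear activity, Cth (0.382), which makes cysteine from cystathionine, Slc7a11 (0.409), the cystine-glutamate exchanger, Bcat1 (0.417), a branched-chain amino acid transaminase, and Serpinf1 (0.420), a secreted member of the serpin family. The measure includes the gap between the groups, which chose G0s2, so it largely restates a change of similar size (fitted log2 changes 4.70 to 6.09). Likeness among the libraries within a group was not tested. Trib3 stood at 62.2 to 99.7 CPM in TG and 1.47 to 2.44 CPM in WT. Serpinf1, the most abundant of these 5 in TG, stood at 248 to 327 CPM in TG and at 5.68 to 21.0 CPM in WT, where the highest value was that of WT replicate 3.

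The genes beside G0s2 on the chromosome had fitted log2 changes of 0.12 to 2.13, below that of G0s2. Hsd11b1, which regenerates active glucocorticoid, is the annotated neighbour on one side and rose from 3.83 ± 1.55 CPM to 13.7 ± 3.96 CPM (SD, n = 4 each), a fitted log2 change of 1.83 (SE 0.29, adjusted p = 0.000777, edgeR). Camk1g, a calmodulin-dependent kinase on the other side, stood at 8.05 ± 1.87 CPM in TG and 7.41 ± 0.718 CPM in WT (fitted log2 change 0.12, adjusted p = 0.725, edgeR). Lamb3, a laminin chain gene whose span overlaps G0s2 on the opposite strand with 0 shared exon bases, was looked at after its values were seen and rose by 2.13 on the log2 scale (SE 0.30, adjusted p = 0.000294, edgeR). With the vascular and stromal covariate Hsd11b1 was at 0.30 (adjusted p = 0.909) and Lamb3 at 0.50 (adjusted p = 0.801, edgeR). No source used here gives the strand setting. Genes on the opposite strand share exon bases with Lipe (918), Abhd5 (950), Mgll (167) and Plin4 (17), so reads in these overlaps are uncertain.

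Among other droplet proteins 2 genes, Plin5 and Hsd17b11, rose. Of 16 listed, 15 were matched and 11 tested, and the other 9 did not pass (edgeR, adjusted p under 0.05). The share called was 18.2%, near the 20.1% of all tested genes, with a median fitted log2 change of 0.22 against −0.00186 over all tested genes. Plin5, a perilipin that links droplets to mitochondria and the chromosomal neighbour of Plin4, rose from 0.355 ± 0.165 CPM to 1.43 ± 0.482 CPM (fitted log2 change 1.98, SE 0.53, adjusted p = 0.0148, edgeR), a call lost without TG replicate 2 (1.83) or TG replicate 3 (1.90). Hsd17b11, a droplet-bound short-chain dehydrogenase, rose by 0.68 (SE 0.16, adjusted p = 0.00852, edgeR) but was at −0.16 with the macrophage covariate. Bscl2, the seipin gene of droplet formation, was at 0.26 (SE 0.12) and the small GTPase gene Rab18 at −0.17 (SE 0.10).

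Among 19 tested genes of other lipases and lipid hydrolases, 4 rose and 15 did not pass, with a median of 0.05. Lipa, the acid lipase of lysosomes, stood at 17.7 ± 3.13 CPM against 9.31 ± 1.53 CPM (fitted log2 change 0.93, SE 0.17, adjusted p = 0.00142, edgeR). Ces1d, a carboxylesterase that hydrolyses triglyceride, rose by 2.10 (SE 0.38) and Aadac, a related esterase, by 1.94 (SE 0.47), from 0.822 ± 0.326 CPM to 3.20 ± 1.93 CPM. Aadac overlapped between the groups and did not pass in limma-voom (1.70, adjusted p = 0.0634). Ces1d was at 0.28 (SE 0.39) and Aadac at 0.26 (SE 1.04) with the vascular and stromal covariate. Abhd4, a lysophospholipase gene, rose by 0.36 (SE 0.12, adjusted p = 0.0440, edgeR), a call lost without any single library of either group (0.25 to 0.38). Their share called was 21.1%, near the 20.1% of all tested genes.

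Of 21 tested genes that make triglyceride and sterol esters, 4 rose and 1 fell, with a median of 0.17. The share called was 23.8%, near the 20.1% of all tested genes. Agpat4, which adds a fatty acid to lysophosphatidic acid, stood at 31.9, 35.6, 36.7 and 32.9 CPM in TG and 14.8, 17.3, 14.8 and 11.4 CPM in WT (fitted log2 change 1.23, SE 0.13, adjusted p = 1.13e-05, edgeR). Its relative Agpat3 fell by 0.41 (SE 0.11, adjusted p = 0.0177, edgeR). The phosphatidate phosphatase gene Lpin2 rose by 0.41 (SE 0.11), a call lost without TG replicate 3 (0.38) or WT replicate 2 (0.34), and the sterol acyltransferase gene Soat2, at 1.61 ± 0.695 CPM against 0.348 ± 0.285 CPM, rose by 2.23 (SE 0.64). The call of Soat2 was lost without TG replicate 1 (2.14), 3 (2.11) or 4 (2.04) and without WT replicate 1 (2.15) or 2 (1.84). The count of 5 called genes was 3 without TG replicate 1, TG replicate 4 or WT replicate 1, and 2 without TG replicate 3 or WT replicate 2. The last step of triglyceride synthesis was measured by Dgat1 at 0.03 (SE 0.15) and Dgat2 at 0.32 (SE 0.34), named after their values were seen.

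Of 11 tested fatty acid carriers 4 rose and 7 did not pass, with a median of 0.68. The share called was 36.4%, beside 20.1% of all tested genes in either direction and 12.1% higher. Cd36, a fatty acid translocase also carried by capillary endothelium and macrophages, stood at 34.3, 34.4, 38.4 and 25.3 CPM in TG and 15.9, 12.4, 12.9 and 10.8 CPM in WT (fitted log2 change 1.35, SE 0.15, adjusted p = 2.06e-05, edgeR). Fabp5, a carrier related to Fabp4, rose by 0.84 (SE 0.18), Dbi, the acyl-CoA binding protein gene, by 0.78 (SE 0.21) and the transporter gene Slc27a1 by 0.44 (SE 0.14). The call of Dbi was lost without TG replicate 3 (0.76), WT replicate 2 (0.77) or WT replicate 4 (0.66). That of Slc27a1 was lost without TG replicate 2 (0.40) or 3 (0.38) and without WT replicate 1 (0.46), 2 (0.47) or 4 (0.30). Without TG replicate 3, or without WT replicate 2, 2 carriers were called. With the vascular and stromal covariate Dbi was at 0.07 (SE 0.43) and Slc27a1 at 0.04 (SE 0.30), while Cd36 was at 1.14 (SE 0.37).

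Of the genes in these 5 lists, the one with the lowest value was in fatty acid oxidation. Of 27 tested genes of PPAR receptors and oxidation, 8 rose and 1 fell, with a median of 0.19. The share called was 33.3%, beside 20.1% of all tested genes. Hadh, a mitochondrial dehydrogenase of oxidation whose loss in people causes excess insulin secretion, fell from 686 ± 62.9 CPM to 261 ± 39.7 CPM (fitted log2 change −1.40, SE 0.11, adjusted p = 5.86e-07, edgeR). Angptl4, a secreted inhibitor of lipoprotein lipase, rose from 3.62 ± 0.544 CPM to 14.6 ± 5.47 CPM (fitted log2 change 2.01, SE 0.28). TG replicate 4 stood at 6.72 CPM against 15.9 to 19.3 CPM in the other TG libraries. Angptl4 was at 1.41 (SE 0.65) with the vascular and stromal covariate and at 0.91 (SE 0.55) with the macrophage covariate, and passed with neither. Acadl, an acyl-CoA dehydrogenase, rose by 0.50 (SE 0.10, adjusted p = 0.00315, edgeR). The receptor genes Ppara (1.09, SE 0.54), Ppard (−0.08, SE 0.20) and Pparg (−0.30, SE 0.18), named after their values were seen, did not pass the test.

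**Figure D5:**
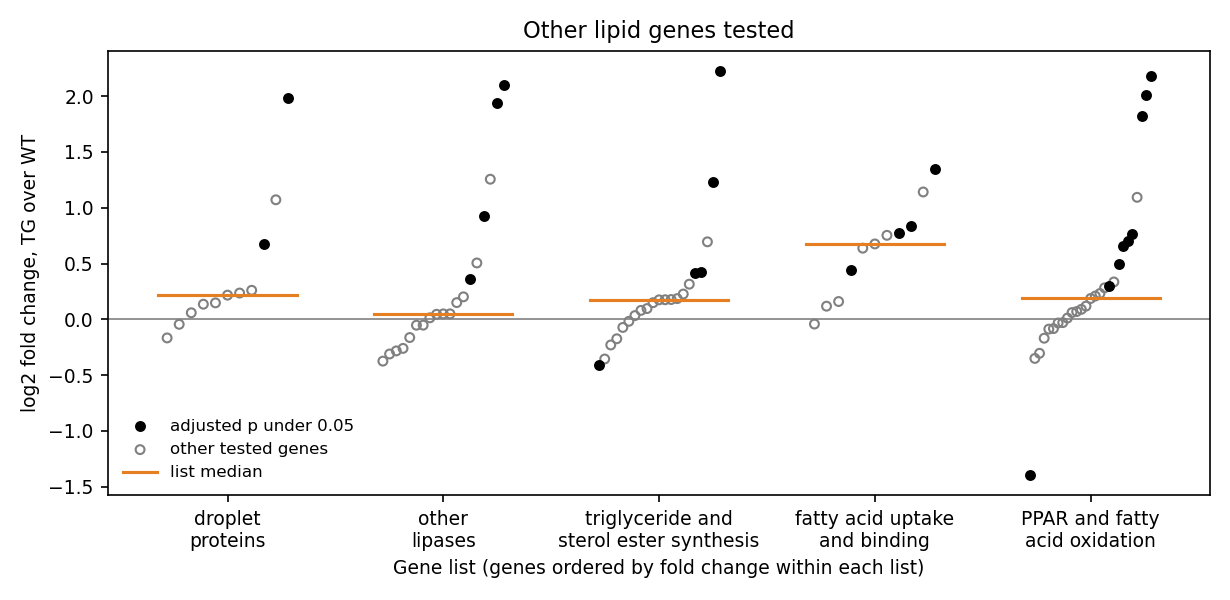
Log2 fold change of TG over WT for the tested genes of the 5 lists of other lipid genes, ordered within each list; filled points passed an adjusted p of 0.05 in edgeR, open points did not, and orange bars are list medians. Medians lie between 0.05 (other lipases) and 0.68 (fatty acid uptake and binding), and the lowest point, in the oxidation list, is Hadh at −1.40.

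Markers of vessels, stroma, macrophages and ducts were higher in TG and those of beta cells lower, as given above. The part of these cell types in the lists was not tested. Both marker covariates separated the groups, so the covariate fits cannot tell that part from the genotype. With the vascular and stromal covariate 0 droplet genes, 0 lipases and 0 synthesis genes passed in edgeR (1, 1 and 4 at an unadjusted p under 0.05; no other tool was run with it), while Hadh (−1.25, adjusted p = 0.0105, edgeR), Acadl (1.01, adjusted p = 0.0227) and the carrier gene Fabp3 (2.09, adjusted p = 0.0117), which was at 0.68 (adjusted p = 0.129) without it, did. Several genes that no longer passed had fitted log2 changes close to those without the covariate and larger errors, among them Agpat4 at 1.24 (SE 0.31, adjusted p = 0.0694, edgeR), Soat2 at 2.11 (SE 1.66), Plin5 at 1.70 (SE 1.29), Lpin2 at 0.38 (SE 0.26) and Lipa at 0.79 (SE 0.40). Others shrank, among them Ces1d to 0.28, Dbi to 0.07 and Slc27a1 to 0.04. Under the macrophage covariate Agpat4 was at 1.11 (SE 0.28), Soat2 at 2.93 (SE 1.30) and Lpin2 at 0.47 (SE 0.23). Plin5 was at 0.99 (SE 1.19), Lipa at 0.51 (SE 0.37) and Cd36 at 0.77 (SE 0.29) under it. With the macrophage covariate the genes that passed were Hadh (−1.46, adjusted p = 0.00734, edgeR), Agpat3 (−0.90, adjusted p = 0.0412) and Fabp3 (1.87, adjusted p = 0.033). No droplet gene or lipase passed with it, where 0 and 1 had an unadjusted p under 0.05. Without TG replicates 2 and 3, edgeR called 0 droplet genes (0 at an unadjusted p under 0.05), 3 lipases and 3 carriers, all higher, 2 synthesis genes, of which 1 was higher and 1 lower, and 3 oxidation genes, of which 1 was higher and 2 lower, beside 10% of all genes.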

How the data were processed

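RNA-seq libraries of pancreatic islets (4 TG, 4 WT) were analysed from the deposited read counts per Ensembl gene, 1 table per library, whole numbers that the authors did not normalize. The submitters' processing notes list STAR 2.7.10a, HTSeq 0.11.3 and mm39. Reads given to no gene (25.3% to 31.5%) and ambiguous reads (3.74% to 4.36%) were left out. Symbols came from a GENCODE table (52081 of 55414 identifiers) and exon lengths from GENCODE M21 on GRCm38, so CPM per kb is approximate.

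Genes were filtered with filterByExpr (minimum count 10, 20509 left), scaled by TMM and compared with the edgeR 4.0.16 quasi-likelihood test in R 4.3.3, two-sided, with group as the only term and Benjamini-Hochberg adjustment over all tested genes. Fitted log2 changes come from this fit, and their SE is the log2 change divided by the root of the F statistic. The step was tested on simulated data. Every pair of libraries within a group differed by more than sampling noise. The 10 genes and all lists were chosen with earlier results of these data known. Named genes are the 10, up to 4 per list with the lowest adjusted p, the 5 most like G0s2, its neighbours and Atf4; 1 gene that this rule names is not reported here. Alternatives were DESeq2 1.42.0, limma-voom (limma 3.58.1), other scalings and filters, a replicate block, 3 marker covariates and each library left out. Leaving out TG replicates 2 and 3 together was added after seeing the data. Limits for a count of 0 cover counting error only. The strand setting and the aligner's options were not given in the sources used here.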

Additional observations from a re-analysis of the deposited data

Results flagged for a closer look

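In groups of 4 libraries, 1 value stood apart from the other 3 in 8 of 62 groups examined (31 genes), where chance gives about 1 in 20. Pnpla2 in WT was 18.3 CPM in replicate 3 against 12.2 to 12.3 CPM in the others. This library also had the highest endothelial, stromal, macrophage, ductal and acinar marker sums of the WT group. Plin2 in TG was 30.5 CPM in replicate 2 against 29.05 to 29.1 CPM. Plin4 in TG was 5.56 CPM in replicate 1 against 3.33 to 3.66 CPM. Rab18 was 62.4 CPM in TG replicate 4 against 53.7 to 54.9 CPM, and 72.9 CPM in WT replicate 4 against 59.7 to 60.4 CPM. Lipa in TG was 13.0 CPM in replicate 4 against 18.7 to 19.6 CPM. Soat2 in TG was 0.578 CPM in replicate 2 against 1.85 to 2.11 CPM. Angptl4 in WT was 2.81 CPM in replicate 4 against 3.82 to 3.98 CPM.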

How the results depend on the processing

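The log2 difference of the G0s2 to Pnpla2 ratio was 5.14, and 5.01 to 5.21 with each library left out. The fitted log2 fold change of G0s2 lay between 4.31 and 5.38 over all 21 settings and that of Plin2 between 0.43 and 0.72, while Pnpla2 (−0.58 to 0.24), Lipe (−0.59 to 1.15) and Abhd5 (−0.06 to 0.41) had values on both sides of 0. With the vascular and stromal covariate 289 genes were called in place of 4129, 1 of the 10 genes, 0 other droplet proteins, 0 other lipases, 0 synthesis genes (1, 1 and 4 at an unadjusted p under 0.05, edgeR), 1 carrier and 2 oxidation genes. Standard errors were larger there. Some lost calls kept their size (Agpat4 1.24, Soat2 2.11, Plin5 1.70, Cd36 1.14) and others shrank (Ces1d 0.28, Dbi 0.07, Slc27a1 0.04). With the macrophage covariate the counts, in the same order, were 238, 1, 0, 0, 1, 1 and 1. Hsd17b11 was then at −0.16, Agpat4 at 1.11, Soat2 at 2.93, Plin5 at 0.99 and Cd36 at 0.77. Without TG replicates 2 and 3 together the counts were 2254, 4, 0, 3, 2, 3 and 3 (of the last 3, 1 higher and 2 lower), which rest on fewer libraries. A filter of 1 CPM in 4 libraries left 1 droplet protein called. With each library left out in turn, 2864 to 4404 genes, 6 to 7 of the 10, 1 to 2 droplet proteins, 3 to 4 lipases, 2 to 5 synthesis genes, 2 to 4 carriers and 7 to 10 oxidation genes were called. The cause of these changes was not tested. DESeq2 called 4857 genes (23.7%), 7 of the 10 and 6 carriers, limma-voom 4303 (21%), 7 and 5, and edgeR without a filter 4274 (8.89%), 7 and 5. With the replicate number as a block 4673 of 20509 tested genes and 7 of the 10 were called. Same-numbered libraries correlated at 0.02 to 0.12 in their deviations from the group means and others at −0.19 to 0.18, 5 of 8 correlated best with their own number, and nothing in the labels pairs them. With 16521087 counts in the smallest library, genes near 0.182 CPM cannot be compared.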
